A study of Mus musculus with 2 samples.

Results

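Type I interferon response genes are genes whose transcription rises after cells sense type I interferon. A list of 43 of them was read in splenic regulatory T cells (Tregs), out of 28692 genes in the deposited matrices. The genes were listed by their known response to interferon and not by a count threshold, and a gene counted as measured when it had 20 or more UMIs (unique molecular identifiers, which count captured transcripts once each) over both libraries. By that rule 40 of the 43 were measured and 30 of them had 100 or more UMIs. The 3 genes below the minimum were Ifi44 (0 and 2 UMIs in the PPARg-low and PPARg-negative libraries), Oas2 (0 and 7) and Mx1 (4 and 6). The gene nearest above it was Oasl1, with 8 and 16 UMIs.

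Type I interferons bind a receptor made of the Ifnar1 and Ifnar2 chains, whose kinases Jak1 and Tyk2 activate Stat2 among other factors. Stat2 and Irf9 are part of a complex that binds a DNA element upstream of response genes, called the interferon-stimulated response element. The induced proteins sense foreign nucleic acid, block viral translation, degrade RNA or nucleotides, or, as with Usp18, dampen the receptor again. Lymphocytes also carry a low level of many of these transcripts without infection, and some of the genes, such as the guanylate-binding proteins and Irf1, respond to interferon gamma as well.

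The promoters of 7 members are shown because the binding element can be read in them, and because these genes span the directions described below. Each line gives the 200 bases just before the RefSeq transcription start (GRCm38.p6), 5′ to 3′ on the gene's strand. Capitals mark the core of the response element, which is GAAA, any 2 bases and GAAA again, searched on both strands, and overlapping matches run together.
Isg15, chr4:156200819-156201018, minus strand: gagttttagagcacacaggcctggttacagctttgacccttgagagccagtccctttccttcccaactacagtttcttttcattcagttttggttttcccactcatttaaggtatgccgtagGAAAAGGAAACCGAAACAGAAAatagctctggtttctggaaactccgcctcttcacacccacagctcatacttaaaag
Ifit3, chr19:34583329-34583528, plus strand: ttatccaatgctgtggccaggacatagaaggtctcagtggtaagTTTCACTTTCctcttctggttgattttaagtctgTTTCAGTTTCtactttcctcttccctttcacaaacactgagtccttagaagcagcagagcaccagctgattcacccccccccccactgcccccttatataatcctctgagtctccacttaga
Ifit3b, chr19:34607757-34607956, plus strand: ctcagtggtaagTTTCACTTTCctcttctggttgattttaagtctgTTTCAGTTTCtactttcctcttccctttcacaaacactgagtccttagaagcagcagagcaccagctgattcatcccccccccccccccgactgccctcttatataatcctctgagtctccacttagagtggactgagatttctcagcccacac
Rsad2, chr12:26456453-26456652, minus strand: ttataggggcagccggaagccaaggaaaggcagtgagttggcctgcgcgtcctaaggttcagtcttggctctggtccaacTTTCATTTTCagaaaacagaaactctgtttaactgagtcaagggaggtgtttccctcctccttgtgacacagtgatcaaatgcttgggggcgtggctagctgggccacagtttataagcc
Oas1a, chr5:120907526-120907725, minus strand: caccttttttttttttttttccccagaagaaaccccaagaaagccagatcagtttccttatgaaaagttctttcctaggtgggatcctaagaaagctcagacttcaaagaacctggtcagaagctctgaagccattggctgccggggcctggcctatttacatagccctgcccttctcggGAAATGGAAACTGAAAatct
Oas3, chr5:120777660-120777859, minus strand: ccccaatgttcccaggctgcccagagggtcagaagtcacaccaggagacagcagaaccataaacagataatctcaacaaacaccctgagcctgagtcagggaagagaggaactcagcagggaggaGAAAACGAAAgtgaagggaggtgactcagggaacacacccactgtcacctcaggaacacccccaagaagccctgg
Gbp7, chr3:142530136-142530335, plus strand: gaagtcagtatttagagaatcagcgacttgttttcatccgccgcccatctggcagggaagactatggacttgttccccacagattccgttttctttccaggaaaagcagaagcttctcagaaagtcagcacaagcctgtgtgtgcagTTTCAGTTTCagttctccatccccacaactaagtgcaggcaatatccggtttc

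In Isg15 the 3 overlapping matches lay 57 to 78 bases before the start, and in Rsad2 the single match lay 111 to 120 bases before it. Ifit3 and its near copy Ifit3b each had 2 matches, at 113 to 122 and 147 to 156 bases in Ifit3 and at 145 to 154 and 179 to 188 bases in Ifit3b. The Gbp7 match lay 44 to 53 bases before the start, and the 2 overlapping Oas1a matches lay 5 to 20 bases before it. Over windows from 250 bases before to 50 after the start, 21 of the 35 members with an entry (60.0%) held the motif, against 3.99% of 27025 genes. A second motif, TTCNNNGAA, the core of the gamma-activated sequence, was found in 10 of the 35 (28.6%) and in 9.55% of all genes, and the letters of the motifs can overlap. The 8 members without an entry were Usp18, Dhx58, Zbp1, Oas2, Mx1, Ifi27l2a, Rtp4 and Parp14. Both motifs and the 7 promoters were chosen after values had been seen, and a match is a description of the letters only.

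The cells came from spleens of male mice of the B6 Pparg-Tdt.Foxp3-Gfp strain, aged 8 weeks, in which a red reporter follows Pparg and a green one follows Foxp3. All cells of both groups carried both reporter alleles. Spleens of 2 or 3 mice were pooled before sorting, and each sorted group gave 1 droplet-based 3′ library: Tregs with low PPARg signal (PPARg-low) and Tregs without it (PPARg-negative). Each group being 1 library, spread between replicates could not be measured and the groups were not tested against each other, so the 95% intervals below stand for counting error alone. For ratios they take UMIs as independent, so they are too narrow for genes whose UMIs are bunched in few cells.

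With barcodes above 10% mitochondrial UMIs removed, the PPARg-low library held 1619 cells and 2901710 UMIs and the PPARg-negative library 2633 cells and 5897260 UMIs, with medians of 1517 and 2171 UMIs per cell. Pparg had 43 and 0 UMIs and Foxp3 100 and 146, and all 8 Treg markers were detected in both libraries. The libraries shared 5 barcode sequences. Cells with under 20% ribosomal protein UMIs, called ribosome-poor below, made up 58.7% of PPARg-low and 23.3% of PPARg-negative cells, with median depths of 978 and 853 UMIs against 2294 and 2455 UMIs in the others. Levels are therefore also given within each kind of cell. Genes of other cell types were rare: the 8 myeloid markers had 55 and 19 UMIs in all (S100a8 and S100a9 at 0 in both), the 5 NK and CD8 T cell markers 104 and 173 (Ncr1 at 0), and the 6 erythroid and platelet markers 38 and 10 (Pf4 and Ppbp at 0). The 5 B cell markers had 1606 and 876 UMIs, of which Cd74 gave 1509 and 712.

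Levels are in CPM, a gene's UMIs scaled to a library of 1e6 UMIs. The ratio is that of PPARg-low over PPARg-negative, and a gene was called higher or lower when this ratio was at least 1.5-fold with its interval on the same side of 1. Over the 40 measured members 5 were called higher (12.5%), against 24.3% of all 9839 genes with 20 or more UMIs. In the other direction 7 were called lower (17.5%), against 4.38% of all genes. The lower ones were Ifit1, Ifit2, Ifit3, Usp18, Oas3, Irgm1 and Ifitm3, and the higher ones Oas1a, Gbp7, Ifitm2, Lgals3bp and Parp14. The median log2 ratio was 0.03 over the members and 0.29 over all genes, so a typical gene lay 1.22-fold higher in the PPARg-low library. Relative to that median 9 members were called lower (8.75% of all genes), namely the same 7 with Ifit3b and Gbp2, and only Ifitm2 and Lgals3bp were called higher (12.1% of all genes). Of the 28 members not called, 8 had an interval wholly above 1, 4 wholly below 1 and 16 across it. The libraries also differed in genes of Treg state. All 11 listed resting Treg genes were called lower (median ratio 0.141), against 4.38% of all genes. All 12 listed effector Treg genes were called higher (median ratio 7.38), against 24.3% of all genes. The part of this difference in the member ratios was not tested.

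**Figure D1:**
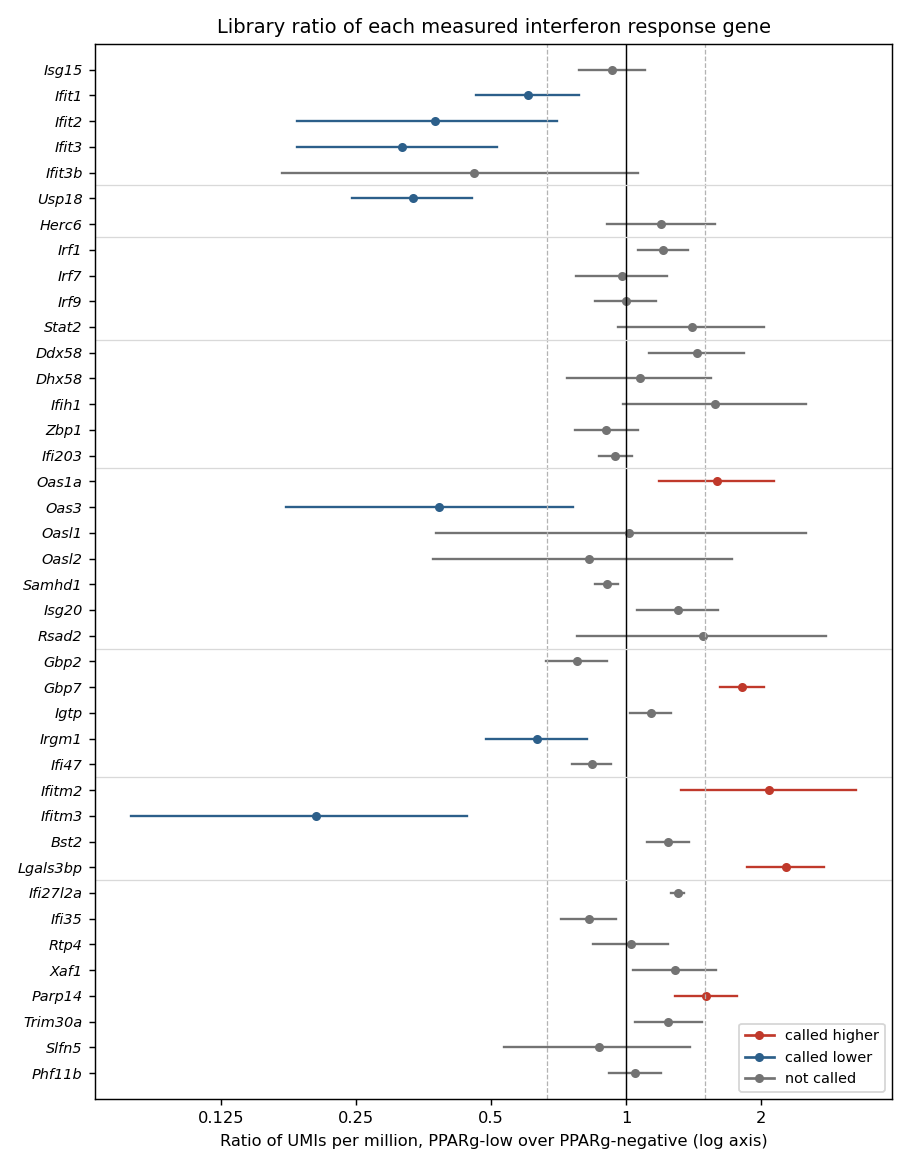
Ratio of CPM of each of the 40 measured members, PPARg-low over PPARg-negative, on a log axis, in role groups separated by grey lines; points are ratios, bars 95% counting intervals, and dashed lines mark 1.5-fold. Of these genes 5 are called higher (red) and 7 lower (blue), and the Ifit genes lie left of 1.

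The IFIT proteins bind viral RNA and block its translation, and Isg15 encodes a ubiquitin-like modifier. Ifit2, Ifit3, Ifit3b and Ifit1 stand in a row on the plus strand of chromosome 19, from 34550694 to 34650009 (mm10, GENCODE M21). Ifit1 (ENSMUSG00000034459) had 76 UMIs (26.2 CPM) in the PPARg-low and 255 UMIs (43.2 CPM) in the PPARg-negative library, a ratio of 0.606 (0.463 to 0.785). Ifit3 (ENSMUSG00000074896) had 19 UMIs (6.55 CPM) and 122 UMIs (20.7 CPM), a ratio of 0.317 (0.184 to 0.516). Ifit2 had 12 UMIs (4.14 CPM) and 65 UMIs (11.0 CPM), a ratio of 0.375 (0.184 to 0.701). These 3 genes were lower in the PPARg-low library, and Ifit3b, with 7 and 31 UMIs, had an interval that reached 1 (0.459, 0.171 to 1.06). In the PPARg-negative library 46.3% of Ifit1 and 44.9% of Ifit3 UMIs came from 37 cells with several Isg15 and Ifit UMIs, which are described further on. Without such cells in either library Ifit1 was not called (0.847, 0.614 to 1.16), Ifit3 lay at 0.528 (0.296 to 0.897) and Ifit2 at 0.419 (0.205 to 0.788). The cells were picked by these same UMIs, so leaving them out removes Ifit UMIs by construction. Of the 31-base stretches in the last 500 bases of Ifit3, 24.0% also occur in Ifit3b, and of those of Ifit3b 4.47% occur in Ifit3. Such stretches do not tell the pair apart, so the counts of both genes may be affected. Isg15 was not called, with 200 UMIs (68.9 CPM) and 436 UMIs (73.9 CPM) and a ratio of 0.932 (0.785 to 1.10).

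Usp18 encodes the protease that removes Isg15 from proteins and also restrains the interferon receptor. It had 51 UMIs (17.6 CPM) in the PPARg-low and 309 UMIs (52.4 CPM) in the PPARg-negative library, a ratio of 0.335 (0.244 to 0.452). Its interval lay farther below 1 than that of any Ifit gene, and the ratio was alike within ribosome-poor cells (0.320, 0.169 to 0.587) and ribosome-rich cells (0.357, 0.241 to 0.514). Herc6, a ligase that attaches Isg15, had 85 and 144 UMIs and was not called (1.2, 0.907 to 1.58).

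None of the 4 transcription factor genes among the members was called. Irf9, the DNA-binding part of the response factor, had 243 UMIs (83.7 CPM) and 494 UMIs (83.8 CPM), a ratio of 1.0 (0.854 to 1.17). Irf7, which amplifies interferon production, lay at 38.3 and 39.0 CPM (0.981, 0.775 to 1.24). Irf1 lay at 135 and 112 CPM (1.21, 1.07 to 1.37), close to the median ratio of all genes. Stat2 lay at 17.6 and 12.5 CPM (1.40, 0.961 to 2.03). So while 3 Ifit genes and Usp18 were lower, these factors were not called in either direction.

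Genes of RNA and DNA sensors, 5 in all, were not called either. Ddx58, which encodes the RNA sensor RIG-I, had 117 and 165 UMIs (1.44, 1.13 to 1.84), and Dhx58, which encodes its relative LGP2, had 47 and 89 (1.07, 0.737 to 1.55). Zbp1, a sensor of left-handed nucleic acid, lay at 76.2 and 84.3 CPM (0.904, 0.768 to 1.06). Ifi203, of the DNA-binding p200 family, lay at 274 and 289.6 CPM (0.946, 0.869 to 1.03). The third RNA sensor gene, Ifih1, is among the sparse members below.

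Antiviral enzymes diverged within a family. The Oas genes encode synthases of the oligoadenylate that activates RNase L. Oas1a had 84 UMIs (28.9 CPM) in the PPARg-low and 107 UMIs (18.1 CPM) in the PPARg-negative library, a ratio of 1.60 (1.18 to 2.14). Oas3, on the same chromosome, had 10 UMIs (3.45 CPM) and 53 UMIs (8.99 CPM), a ratio of 0.383 (0.174 to 0.762). One synthase gene was thus called higher and the other lower over all cells. Within ribosome-rich cells Oas3 was not called (9 and 39 UMIs, 0.692, 0.295 to 1.45) and its interval overlapped that of Oas1a (1.23 to 2.56), and within ribosome-poor cells Oas1a lay at 0.840. Relative to the median of all genes Oas3 stayed at 0.313, while Oas1a, at 1.3, was no longer called. Samhd1, which depletes nucleotides, lay at 520.4 and 575 CPM (0.905, 0.851 to 0.962), and the exonuclease gene Isg20 at 53.1 and 40.7 CPM (1.3, 1.06 to 1.60).

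GTPase genes, whose products attack the vacuoles of intracellular pathogens, also split. Gbp7 (ENSMUSG00000040253) had 584 UMIs (201 CPM) and 655 UMIs (111 CPM), a ratio of 1.81 (1.62 to 2.03), and lay at 1.48 relative to the median of all genes. Its neighbour on chromosome 3, Gbp2, had 228 UMIs (78.6 CPM) and 597 UMIs (101 CPM), a ratio of 0.776 (0.663 to 0.906). Gbp7 was higher in the PPARg-low library and Gbp2 was not called, although its interval lay below 1. Irgm1 had 79 UMIs (27.2 CPM) and 253 UMIs (42.9 CPM), a ratio of 0.635 (0.487 to 0.820). Igtp lay at 191 and 168 CPM (1.13, 1.02 to 1.26), and Ifi47 at 193 and 229.8 CPM (0.838, 0.758 to 0.926). Of these GTPase genes only Irgm1 was called lower.

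Among membrane and secreted proteins, the paralogs Ifitm2 and Ifitm3, which block viral entry, went apart. Ifitm2 had 43 UMIs (14.8 CPM) and 42 UMIs (7.12 CPM), a ratio of 2.08 (1.33 to 3.26). Ifitm3 had 7 UMIs (2.41 CPM) and 70 UMIs (11.9 CPM), a ratio of 0.203 (0.0788 to 0.441), the lowest of any measured member. Both counts are small, and 8.30% of the 31-base stretches in the last 500 bases of Ifitm2 also occur in Ifitm3. Lgals3bp (ENSMUSG00000033880), a secreted glycoprotein gene, had the highest ratio of the members, with 218 UMIs (75.1 CPM) and 195 UMIs (33.1 CPM), or 2.27 (1.86 to 2.77). Bst2, which encodes the virus-tethering protein tetherin, lay at 196 and 158 CPM (1.24, 1.12 to 1.38).

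Ifi27l2a, a mitochondrial-protein gene of the ISG12 family, gave more UMIs than any other member, 5751 UMIs (1982 CPM) and 8956 UMIs (1519 CPM), or 40.2 and 34.5% of all member UMIs. Its ratio was 1.31 (1.26 to 1.35), close to the median of all genes. Parp14, an ADP-ribosyltransferase gene, was called higher at the edge of the rule, with 95.1 and 62.9 CPM (1.51, 1.29 to 1.77). Of the other genes with 100 or more UMIs, Ifi35 lay at 97.5 and 118 CPM (0.826, 0.717 to 0.95), Rtp4 at 55.8 and 54.4 CPM (1.03, 0.844 to 1.24) and Phf11b at 116 and 111 CPM (1.05, 0.917 to 1.2). Xaf1 lay at 51.0 and 39.7 CPM (1.29, 1.04 to 1.59) and Trim30a at 75.5 and 60.7 CPM (1.24, 1.05 to 1.48). The 6 remaining measured members, Ifit3b, Ifih1, Oasl1, Oasl2, Rsad2 and Slfn5, had 24 to 90 UMIs over both libraries, ratios of 0.459 to 1.58 and intervals that all held 1.

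The calls were read again within each kind of cell. Within ribosome-poor cells 34 members had 20 or more UMIs, and 1 was called higher (6.52% of all genes) and 5 lower (5.12%). The lower ones were Ifit3 (0.207, 0.0796 to 0.482), Usp18, Dhx58 (0.479, 0.230 to 0.983), Zbp1 (0.536, 0.392 to 0.732) and Samhd1 (0.631, 0.567 to 0.703), and the higher one was Isg20 (1.73, 1.04 to 2.99). Within ribosome-rich cells 39 members were measured, with 4 called higher (17.2% of all genes) and 6 lower (3.84%). Ifit1, Ifit2, Ifit3, Usp18, Irgm1 and Ifitm3 were the lower ones there, and Oas1a, Gbp7, Lgals3bp and Ifi27l2a the higher ones. Ifit3 and Usp18 were thus called lower in both kinds of cells. Ifit1 lay at 0.436 (0.291 to 0.634) in ribosome-rich and at 0.715 (0.448 to 1.15) in ribosome-poor cells, where it was not called.

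Each of the 5 genes called higher over all cells missed the rule within ribosome-poor cells. Gbp7 lay at 1.75 (1.51 to 2.01) in ribosome-rich and 1.22 (0.991 to 1.52) in ribosome-poor cells, and Lgals3bp at 1.74 (1.29 to 2.33) and 1.26 (0.932 to 1.72). Oas1a lay at 1.79 (1.23 to 2.56) in ribosome-rich and 0.840 (0.481 to 1.49) in ribosome-poor cells, and Parp14 at 1.24 (0.992 to 1.55) and 0.999 (0.768 to 1.31). Ifitm2, with 23 and 5 UMIs in ribosome-poor cells, had a ratio of 2.61 with an interval of 0.972 to 8.80. The intervals of the 2 kinds of cells overlap for these 5 genes, and the difference between the kinds was not tested.

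**Figure D2:**
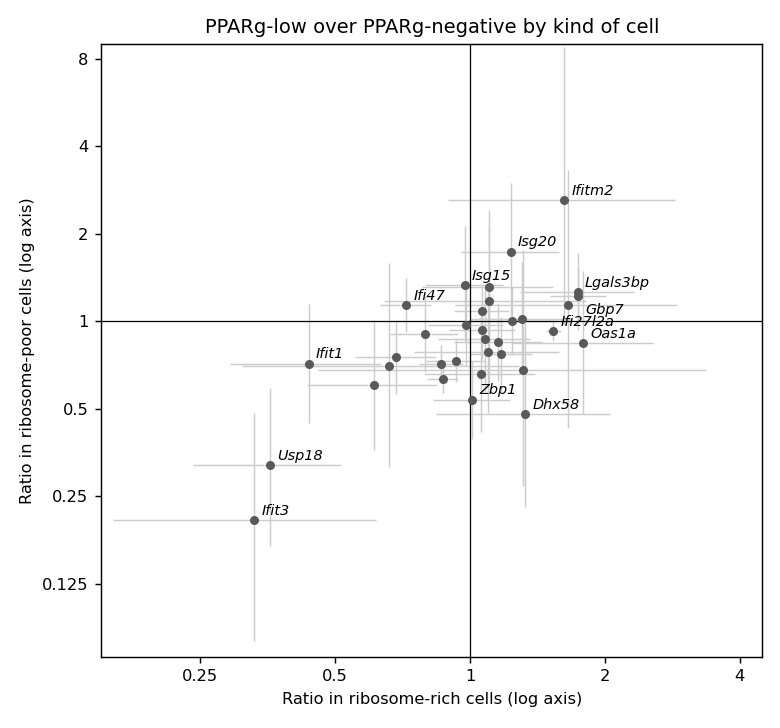
Ratio of PPARg-low over PPARg-negative within ribosome-poor cells (vertical) against ribosome-rich cells (horizontal), both on log axes, for members with 20 or more UMIs in each; bars are 95% counting intervals. Usp18 and Ifit3 lie low on both axes, while Gbp7, Lgals3bp, Oas1a and Ifi27l2a lie farther from 1 on the horizontal axis.

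The spread over cells was read after thinning each cell to 750 UMIs, which 1381 PPARg-low and 2394 PPARg-negative cells were deep enough for (238 and 239 were not). A PPARg-low cell held 3.54 ± 2.72 member UMIs (mean and SD over cells) and a PPARg-negative cell 3.38 ± 2.78. Without Ifi27l2a the means were 2.27 ± 2.07 and 2.27 ± 2.23. The typical cell therefore carried about as many member UMIs in either library, and 6.15 and 7.06% of cells held none. The 95th percentile was 9 member UMIs in the PPARg-low and 8 in the PPARg-negative library. The single highest cell held 24 member UMIs in the PPARg-low and 40 in the PPARg-negative library. Without thinning the means were 8.84 and 9.85 UMIs.

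**Figure D3:**
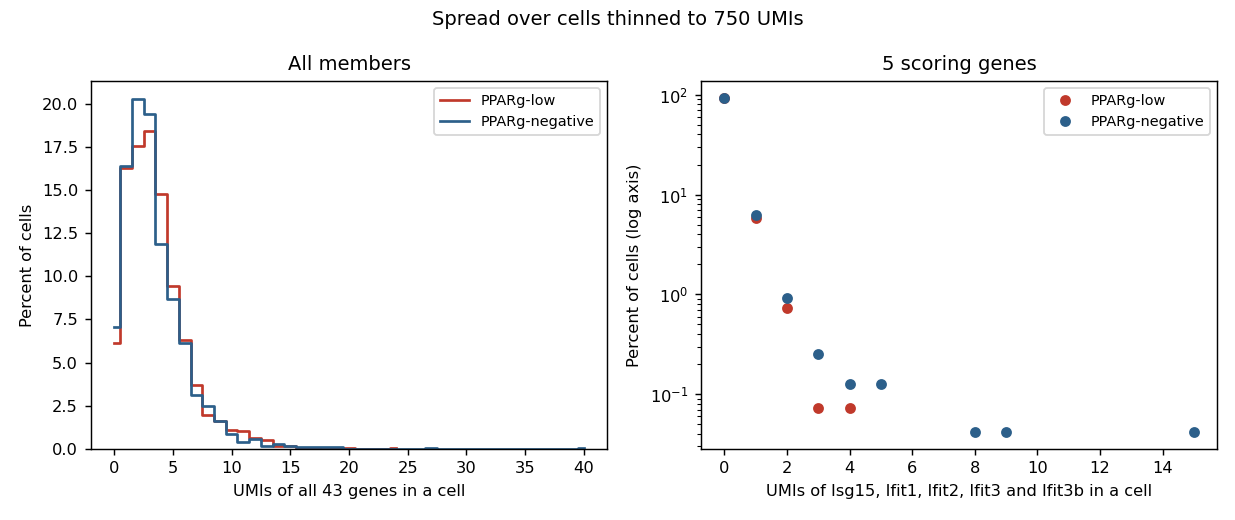
Percent of cells by their UMIs of all 43 members (left) and of the 5 genes Isg15, Ifit1, Ifit2, Ifit3 and Ifit3b (right, log axis), each cell thinned to 750 UMIs. The left curves lie close together; on the right the highest PPARg-low cell holds 4 UMIs and the highest PPARg-negative cell 15.

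Some members were bunched in few cells. The Fano factor, the variance over the mean, is near 1 when UMIs fall on cells at random, and its median over the members was 1.03 in the PPARg-low and 1.05 in the PPARg-negative library, against 0.996 and 0.997 over all genes. Values over 1.2, a bound set with values known, were found for 5 of 40 members in the PPARg-low and 9 of 40 in the PPARg-negative library, against 4.29 and 3.56% of all genes. Ifit1 reached 1.39 and 2.71, and Ifit3 0.996 and 2.58. Both Ifit genes were thus bunched in PPARg-negative cells. Without the 1 cell richest in Ifit and Isg15 UMIs, Ifit1 fell to 1.65 in that library and Ifit3 lay at 2.61. Ifi27l2a had 2.08 and 1.65, Isg15 1.05 and 1.28, and Usp18 1.09 and 1.04. For a gene seen in few cells, a value near 1 does not show an even spread.

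For some members the share of cells with a UMI differed between the libraries, and for others it was alike. Of 1381 PPARg-low cells 18 had a Usp18 UMI (1.3%, 0.774 to 2.05, exact binomial), and of 2394 PPARg-negative cells 93 had one (3.88%, 3.15 to 4.74). Gbp7 was found in 14.5% (12.7 to 16.4) and 8.73% (7.63 to 9.93) of cells, and Lgals3bp in 5.79% (4.62 to 7.16) and 2.46% (1.88 to 3.17). For these 3 genes the intervals do not overlap, but they cover counting error over cells of 1 library each. The difference was not tested, and the shares were not split by kind of cell. Ifi27l2a was found in 60.8 and 59.4% of cells, with overlapping intervals (58.1 to 63.3 and 57.4 to 61.3). Its ratio of 1.31 is from summed unthinned UMIs, in which deep cells weigh more, and was 1.10 with each cell weighing the same. Isg15 was found in 4.42 and 4.26% of cells. Without thinning the shares were 2.90 and 10.2% for Usp18, 27.7 and 20.1% for Gbp7, 11.5 and 6.49% for Lgals3bp, and 73.9 and 80.1% for Ifi27l2a. No cluster of another cell type was at hand in which these genes should be silent, so the level that free RNA gives was not measured.

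The genes Isg15, Ifit1, Ifit2, Ifit3 and Ifit3b, called scoring genes here, were used to find cells with several such transcripts. They had 314 UMIs in the PPARg-low and 909 UMIs in the PPARg-negative library, a ratio of 0.702 (0.616 to 0.799). Cells with 2 or more of their UMIs among 750 made up 0.869% of the PPARg-low library (12 of 1381 cells, 0.45 to 1.51). In the PPARg-negative library they made up 1.55% (37 of 2394 cells, 1.09 to 2.12). The intervals of the shares overlap, and the difference was not tested. With 3 or more UMIs there were 2 cells (0.145%, 0.0175 to 0.522) and 15 cells (0.627%, 0.351 to 1.03), again with overlapping intervals. Among those 2 and 15 cells the highest counts were 4 and 15 scoring UMIs. Without thinning, the shares with 2 or more were 3.27 and 4.94%, from cells of unequal depth. Such cells are a range of a count, not a cell type: 80 PPARg-low and 149 PPARg-negative cells held exactly 1 scoring UMI, just below the bound, and 10 and 22 held exactly 2.

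The other 38 members, which were not used to find these cells, were more abundant in them. Their mean per PPARg-negative cell was 3.12 ± 2.34 UMIs with 0 scoring UMIs, 4.04 ± 2.92 with 1, 7.50 ± 4.79 with 2 and 10.9 ± 6.50 with 3 or more (SD over cells, 2208, 149, 22 and 15 cells). In PPARg-low cells the means were 3.35 ± 2.54, 4.51 ± 3.22, 7.50 ± 2.92 and 12 ± 5.66 (1289, 80, 10 and 2 cells). In both libraries the means went up in this order, and the spread over cells was wide in each class. Without Ifi27l2a they were 2.05, 2.74, 4.91 and 8.13 in PPARg-negative and 2.12, 2.86, 4.80 and 9.5 in PPARg-low cells.

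**Figure D4:**
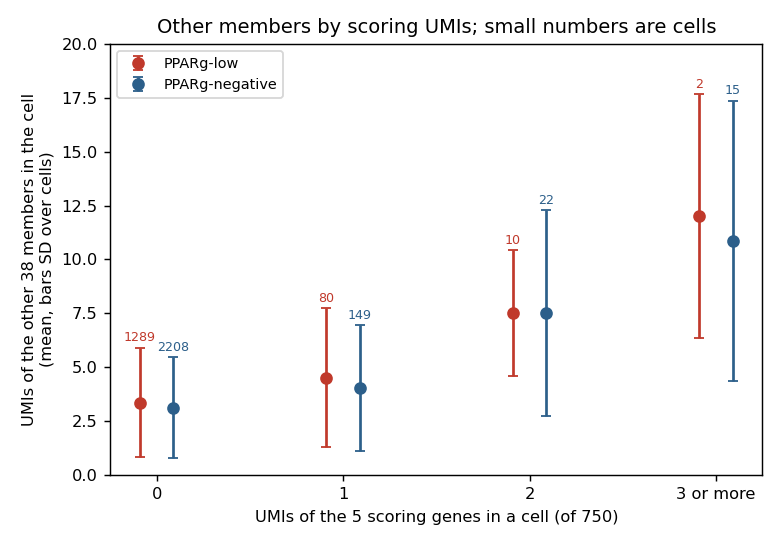
UMIs of the 38 members outside the scoring genes per cell (mean, bars SD over cells) against the cell's scoring UMIs, each cell thinned to 750 UMIs; small numbers give the cells. In both libraries the means climb from about 3 UMIs at 0 scoring UMIs to over 10 at 3 or more, the latter from 2 PPARg-low and 15 PPARg-negative cells.

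Gene by gene, the full counts of the 37 PPARg-negative cells were set against those of the other 2357. Of 34 unscored members with 20 or more UMIs, 31 were called higher and 0 lower, against 2.82 and 0.584% of 8903 genes, and the median ratio was 3.73 against 0.920 over all genes. Rsad2, which encodes the antiviral enzyme viperin, had 10 UMIs in 4 of the 37 cells and 10 in the rest, so it reached the minimum only through the scoring cells. Of the 33 members with 20 or more UMIs in the rest alone, 30 were called higher. Dhx58 was 11.6-fold higher (5.75 to 21.6), Oas3 13.4-fold (5.42 to 28.7) and Ifih1, the gene of the RNA sensor MDA5, 9.97-fold (3.05 to 25.5). Genes seen in many of the cells rose too: Rtp4, which encodes a receptor-transporting protein, was 7.94-fold higher (5.30 to 11.5) with UMIs in 19 of the 37 cells. Lgals3bp was 9.20-fold higher (5.47 to 14.7, 17 cells), Irf7 7.0-fold (4.19 to 11.1, 14 cells) and Usp18 6.20-fold (3.90 to 9.41, 14 cells).

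The lowest upper bounds in the PPARg-negative library were those of Samhd1, Ifi27l2a, Ifi203 and Irgm1. Samhd1 was 1.91-fold higher (1.52 to 2.37), Ifi27l2a 2.11-fold (1.85 to 2.39) and Ifi203 1.91-fold (1.37 to 2.59). These 3 genes are among the most abundant members outside the scoring cells. Irgm1 had 3 UMIs in the 37 cells and lay at 0.897 (0.184 to 2.65), and Irf9 (1.53, 0.730 to 2.85) and Ifitm2 (0 UMIs in the cells) were likewise not called.

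In the PPARg-low library the 12 cells gave less precise values. Of 30 unscored members measured there, 9 were called higher and 0 lower, against 2.39 and 0.332% of 8134 genes, with a median ratio of 1.79 against 0.732 over all genes. The 9 were Usp18, Samhd1, Igtp, Ifi47, Ifi27l2a, Rtp4, Xaf1, Parp14 and Trim30a. Usp18 was 9.15-fold higher (2.39 to 25.1, 4 UMIs in 3 cells), Rtp4 3.43-fold (1.10 to 8.19) and Ifi27l2a 2.13-fold (1.75 to 2.57). Rsad2 had 2 UMIs and Oas3 1 UMI in the 12 cells, and both had under 20 UMIs in the cells compared. Dhx58 and Ifih1 had 0 UMIs in the 12 cells. Lgals3bp lay at 2.03 (0.548 to 5.28), Irf7 at 0.962 (0.0241 to 5.48), Ifi203 at 1.12 (0.482 to 2.22), Samhd1 at 1.79 (1.14 to 2.67) and Irgm1 at 2.82 (0.335 to 10.6). Gbp7 was named after its values were seen: it had 3 UMIs in the 12 PPARg-low cells, a ratio of 0.576 (0.118 to 1.69), and 34 UMIs in the 37 PPARg-negative cells, a ratio of 4.09 (2.81 to 5.79), with intervals that do not overlap. For Rtp4, Usp18, Ifi27l2a and Samhd1 the intervals of the 2 libraries overlap, and the difference between the libraries was not tested.

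These counts depend on which cells 1 random thinning picks. A second thinning found 10 PPARg-low and 34 PPARg-negative cells, and called 15 and 24 unscored members higher (1.91 and 2.27% of all genes). Without thinning 16 and 28 were called higher (2.55 and 2.24% of all genes), in 53 and 130 cells. A single PPARg-low cell held 10064 of the 26417 UMIs of the 12 cells (38.1%) and 99 of their 255 UMIs of unscored members. It also held all 84 of their UMIs from 10 cell cycle genes, a list added after the values were seen. The intervals given for the 12 cells take these UMIs as independent. Without that cell 8 members were called higher, with no share over all genes at hand for this setting. Median depth was 1178 UMIs in the 12 PPARg-low cells and 1756 in the rest, and 2114 and 2284 in the PPARg-negative library. Of the 12 cells 8 were ribosome-poor, and of the 37 cells 6.

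**Figure D5:**
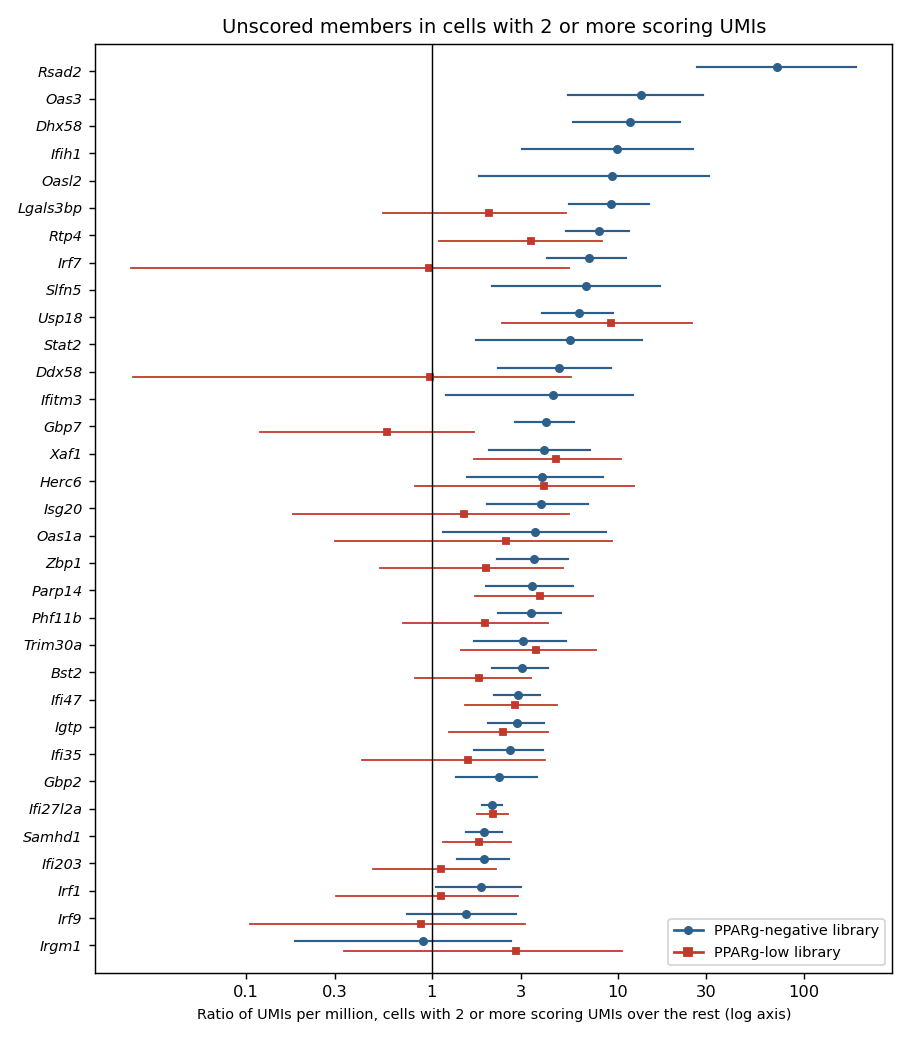
Ratio of CPM in cells with 2 or more scoring UMIs over all other thinned cells of the same library (log axis), for unscored members with 20 or more UMIs and at least 1 UMI in the scoring cells; bars are 95% counting intervals. In the PPARg-negative library (blue) nearly all points lie right of 1 (Rsad2 reached the UMI minimum only through the scoring cells), and in the PPARg-low library (red) the bars are wider.

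Markers of other cells gave few UMIs in the scoring cells, but some of these lists lay higher there than in the rest. Treg markers were found in 34 of the 37 PPARg-negative scoring cells (91.9%) and in 90.8% of the rest. The list of 8 holds Cd3e, Cd3g and Cd4, which are not particular to Tregs, so a UMI of it does not show a Treg. In the PPARg-low library Treg markers were found in 11 of the 12 (91.7%) and in 98.4% of the rest. Their summed ratio to the rest was 0.801 (0.685 to 0.931) there and 0.941 (0.832 to 1.06) in the PPARg-negative library. In the PPARg-low scoring cells 2 of the 8 were called lower, against 0.332% of all genes, and in the PPARg-negative ones 0. All 8 myeloid and all 6 erythroid and platelet markers had 0 UMIs in the scoring cells of both libraries. B cell markers had 7 UMIs in the 12 and 13 UMIs in the 37 cells. NK and CD8 T cell markers were found in 3 of the 37 cells (8.11%) against 2.16% of the rest, and in 1 of the 12 against 2.78%, each at 750 UMIs. Their ratio to the rest was 4.49 (2.11 to 8.47, 10 UMIs) in the PPARg-negative and 2.21 (0.264 to 8.23, 2 UMIs) in the PPARg-low library. When every cell with a UMI of such a marker was left out, 33 PPARg-negative cells remained and 27 of 33 measured members were called higher. The share over all genes was not at hand for that setting. Plasmacytoid dendritic cell markers, a list that holds the member Bst2, gave 41 UMIs in the 37 cells, of which Bst2 gave 36. Their ratio to the rest was 2.71 (1.93 to 3.70) there and 1.79 (0.889 to 3.22) in the PPARg-low library, and their part in the result was not tested. The resting Treg genes had a ratio of 1.03 (0.893 to 1.19) and the effector Treg genes one of 0.767 (0.610 to 0.952) between the 37 cells and the rest. Between the 12 PPARg-low cells and the rest these ratios were 1.84 (1.29 to 2.55) and 0.702 (0.591 to 0.827), and the part of these lists in the member values was not tested.

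The rest of the pathway was read from lists beside the members. Of 8 interferon genes, Ifnb1, Ifna1, Ifna2, Ifne, Ifnl2 and Ifnl3 had 0 UMIs in both libraries, and Ifna4 had 1 UMI in the PPARg-negative library. A count of 0 allows up to 1.03 CPM in the PPARg-low and 0.509 CPM in the PPARg-negative library. Ifng, the gene of interferon gamma, had 12 and 9 UMIs, a ratio of 2.71 (1.05 to 7.28).

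Of 8 measured receptor and kinase genes, 3 were called higher and 0 lower, where 24.3 and 4.38% of all genes were. The type I receptor genes Ifnar1 (339 and 645 UMIs, 1.07, 0.934 to 1.22) and Ifnar2 (224 and 371 UMIs, 1.23, 1.03 to 1.45) were not called. The higher ones were Ifngr1, a chain of the interferon gamma receptor (1.74, 1.64 to 1.85), and the kinase genes Jak2 (2.03, 1.49 to 2.77) and Tyk2 (1.67, 1.21 to 2.30). Within ribosome-poor cells none of these 3 was called (Ifngr1 1.02, Jak2 1.45, Tyk2 0.876). Within ribosome-rich cells Ifngr1 lay at 1.48 and was not called, while Jak2 (1.59, 1.02 to 2.43) and Tyk2 (1.66, 1.07 to 2.53) were. No gene of this list was called in the scoring cells of either library.

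Of 7 measured transcription factor genes outside the members, 3 were called higher and 0 lower, against 24.3 and 4.38% of all genes. The higher ones were Irf5 (2.22, 1.70 to 2.90), Irf4 (2.45, 1.65 to 3.65) and Irf8 (1.86, 1.43 to 2.43). Of 6 measured nucleic acid sensing genes, Mb21d1, which encodes the DNA sensor cGAS, was higher (30 and 20 UMIs, 3.05, 1.67 to 5.66), and Tlr7, an endosomal RNA receptor gene, was lower (1 and 44 UMIs, 0.0462, 0.00114 to 0.271). Of 6 measured negative regulators, Ptpn11 was higher (1.78, 1.31 to 2.41) and Socs3 lower (0.593, 0.516 to 0.681), while Socs1 lay at 0.761 (0.661 to 0.874). For the sensing and regulator lists too, 24.3% of all genes were called higher and 4.38% lower. Values of these lists within each kind of cell are not given here.

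A wider list of response genes held 50 measured genes, of which 9 were called higher (24.3% of all genes) and 6 lower (4.38% of all genes), with a median ratio of 1.12 against 1.22 over all genes. The 6 with the interval bound farthest from 1 were Ms4a4c (15 and 267 UMIs, 0.114, 0.0630 to 0.192), Tnfsf10 (89 and 47, 3.85, 2.67 to 5.6), Ms4a4b (1951 and 9509, 0.417, 0.397 to 0.438), Cxcl10 (38 and 20, 3.86, 2.19 to 7.0), Slfn1 (130 and 656, 0.403, 0.331 to 0.487) and Tap1 (852 and 888, 1.95, 1.77 to 2.14). Tnfsf10 encodes the death ligand TRAIL, Cxcl10 a chemokine and Tap1 a peptide transporter for antigen presentation. In PPARg-negative scoring cells 30 of 49 tested genes of this list were called higher (2.82% of all genes) and 0 lower, and in PPARg-low scoring cells 5 of 47 (2.39% of all genes). Cmpk2, the gene next to Rsad2 in the genome, was 25.1-fold higher in the PPARg-negative scoring cells (8.97 to 61.8), Tgtp1 7.74-fold (3.75 to 14.4) and Daxx 7.35-fold (4.71 to 11.0). These 3 were named after their values were seen.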

How the data were processed

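Tregs of 2 or 3 pooled spleens per group were sorted and run on the 10x Chromium Single Cell 3′ v2 platform, per the labels' protocols. The authors deposited raw UMI counts for each library as a gene by barcode matrix. The submitters' processing notes name Cell Ranger 2.1.0 and mm10. The sources used here do not give the annotation counted or the way cells were called. The PPARg-low library's files carry the tag pos, and the label's word is used.

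From the deposited counts, barcodes above 10% mitochondrial UMIs were removed (373 in PPARg-low, 269 in PPARg-negative), and UMIs were summed per library. Ratios carry an exact conditional binomial 95% interval, and shares an exact binomial one. Scrublet in scanpy 1.11.5 marked 11 and 8 cells as doublets, and these were kept. PCR duplicates were collapsed by UMI, so intervals cover counting error only. For values per cell, cells were thinned to 750 UMIs. The ratio script was tested on simulated data.

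The members, gene lists, tests and the ribosomal split were chosen with earlier results of these data known. All members are described: singly when measured and with 100 or more UMIs or called, otherwise by range. In scoring cells the 8 unscored members with the highest lower bound and the 4 with the lowest upper bound in the PPARg-negative library were named, and up to 6 called genes of each list. The cell cycle list and the alternatives that leave out the richest cell, the deepest cell or cells with NK or CD8 T cell markers were chosen after seeing the data. Promoters came from RefSeq (GRCm38.p6), with entries for 35 of 43 members, and gene coordinates from GENCODE M21. Work was done in Python 3.11.15 with scipy 1.17.1, numpy 2.4.6, matplotlib 3.10.9 and pandas 2.3.3.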

Additional observations from a re-analysis of the deposited data

Results flagged for a closer look

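Ifi27l2a differed between the kinds of cells. PPARg-low over PPARg-negative, it lay at 0.922 (0.853 to 0.997) within ribosome-poor cells, from 1702 and 1049 UMIs, and at 1.54 (1.48 to 1.60) within ribosome-rich cells, from 4049 and 7907 UMIs. The counting intervals lie on opposite sides of 1, but they take UMIs as independent. Ifi27l2a UMIs were bunched in cells (Fano factor 2.08 in the PPARg-low and 1.65 in the PPARg-negative library), so these intervals are too narrow. The difference itself was not tested. Ribosome-poor cells were 58.7% of the PPARg-low library and 23.3% of the other.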

How the results depend on the processing

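No paired analysis was possible because each group has 1 library and the labels carry no replicate numbers. The number of members called higher, 5 over all cells, was 2 relative to the median of all genes (12.1% of all genes). In ribosome-poor cells it was 1 (6.52% of all genes), namely Isg20, which is not among the 5. The number was 3 under a stricter cell filter (at most 5% mitochondrial UMIs and 500 or more genes). With levels scaled to UMIs outside ribosomal protein and mitochondrial genes it was 3, at a 2-fold rule 2 and without the scoring cells 8. The number called lower, 7 over all cells, was 4 at a minimum of 100 UMIs and 5 to 9 elsewhere. It was 9 relative to the median (8.75% of all genes), 5 in ribosome-poor cells (5.12%) and 6 in ribosome-rich cells (3.84%). Of the 5 in ribosome-poor cells, Dhx58, Zbp1 and Samhd1 are not among the 7. For the remaining settings the share over all genes was not at hand, so those counts cannot be set against it. Ifit1 was not called without the scoring cells (0.847, 0.614 to 1.16), which were picked by Isg15 and Ifit UMIs. It was not called with each cell weighing the same either (0.787), and the stricter cell filter lost Oas3 and Irgm1. In ribosome-poor cells Oas1a (0.840) and Parp14 (0.999) turned below 1. The median log2 ratio of 0.03 moved to -0.23 outside ribosomal protein and mitochondrial genes, -0.26 relative to all genes and -0.22 in ribosome-poor cells. The cause was not tested.

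Mean member UMIs per cell in the PPARg-low and PPARg-negative libraries were 2.38 and 2.24 at 500 UMIs, 4.80 and 4.40 at 1000, 8.84 and 9.85 without thinning, 3.68 and 4.30 in ribosome-poor and 3.38 and 3.19 in ribosome-rich cells, so their order turned in the unthinned and the ribosome-poor cells. Another thinning gave 3.65 and 3.33. The share of scoring cells was 3.27 and 4.94% without thinning, 6.66 and 7.77% at 1 or more UMIs, and 0.145 and 0.627% at 3 or more. At 1000 UMIs it was 1.17 and 2.44%. Of the unscored members 9 were called higher in PPARg-low scoring cells (2.39% of all genes). Without thinning 16 were (2.55%), and with another thinning 15 (1.91%). At 1000 UMIs there were 16, in ribosome-rich cells 3 and at 3 or more scoring UMIs 4. In PPARg-negative scoring cells 31 (2.82% of all genes) became 9 in ribosome-poor cells and 19 at 1 or more scoring UMIs. Counts without a percentage had no share over all genes at hand and cannot be set against it. The members under 100 UMIs and the 12 PPARg-low scoring cells rest on few UMIs.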
